A study of Mus musculus with 287 samples.

Results

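The 43 intron-rich and 75 intron-poor cells described here are the ends of a distribution, that of the intron share in single cells of mouse cerebral organoids. The intron share is the percentage that intron counts make up of a cell's exon and intron counts together. Only labelled cells in which 1000 genes or more had an exon count entered, and these made up 86.1% of all libraries in the series. Members were chosen by the intron share: a kept cell at 40% or above was called intron-rich (17.4% of kept cells) and one at 20% or below intron-poor (30.4%), and 52.2% lay between. The classes thus rest on measured counts, so the share itself and the totals behind it are given as a description with no test.

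Each library is 1 cell, drawn by pipette from a labelled clone and sequenced with Smart-seq3, a plate-based method for full-length transcripts. The organoids were grown from mouse embryonic stem cells, and every cell of both classes had the genotype MADM-11GT/TG;Emx1-CreER+/-. MADM (mosaic analysis with double markers) colours the daughters of a dividing cell green or red after recombination by Cre, and here CreER was driven from Emx1, a gene of dorsal forebrain progenitors. Recombination was induced with 60 nM 4-hydroxytamoxifen at day 13 and the cells were collected at day 20, so intron-rich and intron-poor cells shared genotype, inducer and age. The labels give each cell a plate, a clone, a colour (G or R) and a clone type (SN or N, terms the labels do not spell out), and they name no organoid. P-values below therefore rest on clones, not cells, and may be too small where clones shared an organoid. Clones that held both classes, 17 in all, entered each class. Comparisons of the classes left this pairing unused except where the clone is named as a replicate block.

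Introns are removed from transcripts in the nucleus, mostly while the gene is still being copied, so a read from an intron marks RNA that has not been fully spliced. Long noncoding RNAs such as Kcnq1ot1, Meg3 and Malat1 stay in the nucleus, at the gene that made them or in nuclear speckles, whereas messages for ribosomal proteins are short, stable and held in the cytoplasm on ribosomes. The comparison of exon counts between cells of high and low intron share asks which spliced or unspliced RNAs vary with the unspliced pool.

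The 2 tables were not independent of each other. Wdr38 lies over Rpl35, a ribosomal protein gene on the opposite strand, and in 90.98% of the kept cells with an Rpl35 exon count the intron count of Wdr38 was equal to the exon count of Rpl35. The intron count of Kcnq1 was equal to the exon count of Kcnq1ot1, which runs antisense within it, in 34.2% of the kept cells with a Kcnq1ot1 count. Reads on an exon of one gene were thus also counted as intron reads of a gene that spans it, and strand did not separate them. Exon counts of overlapping genes could match at most 18.4% of all intron counts, with a median of 10.7% in intron-rich and 33.0% in intron-poor cells. Over the 28645 genes that overlap no other gene in the annotation, the median intron share was 34.9% in intron-rich and 7.68% in intron-poor cells. Ranked by that share, and with class sizes kept, 32 of 43 intron-rich and 64 of 75 intron-poor cells would have stayed in their class. This stricter class was added as an alternative after the data were seen, and its values are given below for several of the genes.

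Intron-rich cells had an intron share of 40.1% at the lowest, 45.5% at the median and 72.7% at the highest. In intron-poor cells it was 9.30%, 14.9% and 19.9%. The distribution had no gap at the thresholds. The lowest intron-rich cell stood at 40.1% and the next cell below it at 39.5%, while the highest intron-poor cell stood at 19.9% and the next above it at 20.3%. All 3 plates held both classes, with 13 of 90, 11 of 80 and 19 of 77 kept cells intron-rich and 26, 27 and 22 intron-poor on plates 1, 2 and 3.

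**Figure D1:**
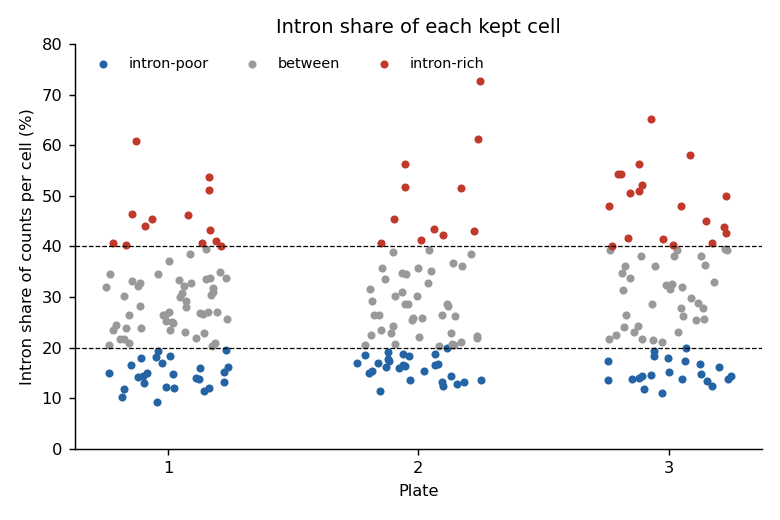
Intron share of each kept cell (y axis, percent of exon and intron counts) by plate (x axis). Dashed lines mark 20% and 40%. Points are cells, and both classes occur on every plate with no gap at either line.

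Cells of 1 clone spread widely. In the 62 clones with at least 2 kept cells, the median range of the intron share within a clone was 18.1 percentage points and the widest was 58.1. Intron-rich cells came from 31 clones and intron-poor cells from 39, and 17 clones held both. Of the 62 clones, 1 was wholly intron-rich and 5 were wholly intron-poor.

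Neither class was detectably tied to clone type or colour. The share of intron-rich cells was 19.1% ± 26.1 (SD, n = 42 clones) in SN and 18.4% ± 18.9 (SD, n = 20) in N clones, and the permutation test of clone means gave p = 0.922 (2-sided). The share of intron-poor cells was 29.2% ± 32.9 in SN and 31.0% ± 32.6 in N clones in the same numbers of clones, with a permutation p of 0.845. In the 45 clones with both colours, green cells had a mean intron share of 29.1% ± 10.5 (SD) and red cells 27.8% ± 10.2, and sign-flip permutation within clones gave p = 0.538. Adjusted over these 3 comparisons by Benjamini-Hochberg, each p was 0.922.

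The classes had like numbers of exon counts and unlike numbers of intron counts. Exon totals ran from 6171 to 9897727 per cell in intron-rich cells, with a median of 1541619, and from 20834 to 13040432 in intron-poor cells, with a median of 1536930. Averaged per clone and class on a log10 scale, they were 6.11 ± 0.77 (SD, n = 31) and 6.14 ± 0.51 (n = 39). Exon totals enter the intron share that set the classes, so these values are a description. Median intron totals were 1944385 in intron-rich and 254325 in intron-poor cells. Within the 17 clones that held both classes, the intron total was higher in the intron-rich cells of 15, and the exon total in 10.

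Intron-rich cells showed more genes for the same number of counts. After each cell was thinned at random to 100000 exon counts, which left out 5 intron-rich and 2 intron-poor shallower cells, intron-rich cells of a clone held 6692 ± 2109 genes (SD, n = 28) and intron-poor cells 3971 ± 1760 (n = 38). Permutation of the classes within plates gave p = 1e-05, the smallest that 100000 draws can give. Adjusted over this and the exon totals, which are read only as a description, the permutation p was 2e-05. Unthinned, the median was 7032 genes in intron-rich and 4792 in intron-poor cells. On plate 1 alone the difference was 1649 genes, with a permutation p of 0.154. When the class was set without mitochondrial and the most abundant genes, the difference was 911 genes, with a permutation p of 0.0889.

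Kcnq1ot1, an imprinted RNA that runs antisense within Kcnq1 and silences neighbouring genes on its own chromosome, differed most by p. Per cell it ran from 0 to 2805 counts per 1000000 exon counts (CPM) in the 43 intron-rich cells, with a median of 567, and from 0 to 405 in the 75 intron-poor cells, with a median of 2.21. None of the intron-poor cells lay above the intron-rich median, yet 9 of the 43 intron-rich cells lay below the intron-poor median, so the groups overlapped at the low end. Exon counts summed per clone and class gave a log2 difference of 4.81 ± 0.60 (SE, 31 intron-rich and 39 intron-poor sums; edgeR quasi-likelihood test with plate as a covariate, Benjamini-Hochberg adjusted p = 2.49e-08 over 7943 genes). It was higher in the intron-rich cells of 15 of the 17 clones that held both classes and lower in 1. With the clone as a replicate block, which rests on those 17 clones, the difference was 6.69. The class effect was 3.72, 4.77 and 5.22 on plates 1, 2 and 3. On plate 1 alone the adjusted p was 0.554, and median CPM there was 80.3 in intron-rich and 2.77 in intron-poor cells. The annotation gives Kcnq1ot1 as 1 exon of 93092 bases, so every read in it counts as exonic whether or not the RNA is complete. Kcnq1 itself had exon counts in 3 of 43 intron-rich and 2 of 75 intron-poor cells.

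Meg3, a maternally expressed nuclear RNA abundant in neurons, was also higher. Its level ran from 0 to 17853 CPM in intron-rich cells, with a median of 2459, and from 0 to 4287 CPM in intron-poor cells, with a median of 470. Of the intron-poor cells, 3 of 75 exceeded the intron-rich median. The log2 difference was 2.25 ± 0.45 (SE), with an adjusted p of 0.00129 in the edgeR test, and Meg3 was higher in the intron-rich cells of 15 of 17 clones with both classes. Its log2 difference was 1.69, 1.25 and 3.09 on the 3 plates. The 4 intron-rich cells of 1 clone of plate 1 averaged 8488 CPM, against 198.2 to 3971 in the 7 other clones there. The call was lost with the clone as a replicate block (1.98, edgeR adjusted p = 0.122) and in classes set without mitochondrial and the most abundant genes (1.65, adjusted p = 0.151).

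Malat1, the abundant RNA of nuclear speckles, was found in every cell of both classes. Its level ran from 2499 to 84195 CPM with a median of 10058 in intron-rich cells, and from 240 to 34812 with a median of 3832 in intron-poor cells. The groups overlapped widely, with 12 of 75 intron-poor cells above the intron-rich median. The log2 difference was 1.39 ± 0.25 (SE, edgeR adjusted p = 0.000204), fell short of the threshold with the clone as a replicate block (1.14, edgeR adjusted p = 0.115) and was 1.04, 1.09 and 1.32 on plates 1, 2 and 3. A clone of plate 2 with 1 intron-rich cell held the highest value, 84195 CPM, against 5142 to 37176 in the other clones. Without this clone and the clone of high Meg3, Malat1 stood at 0.89 with an edgeR adjusted p of 0.104, while Meg3 stood at 1.96 (adjusted p = 0.0231) and Kcnq1ot1 at 4.52 (adjusted p = 1.88e-06).

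**Figure D2:**
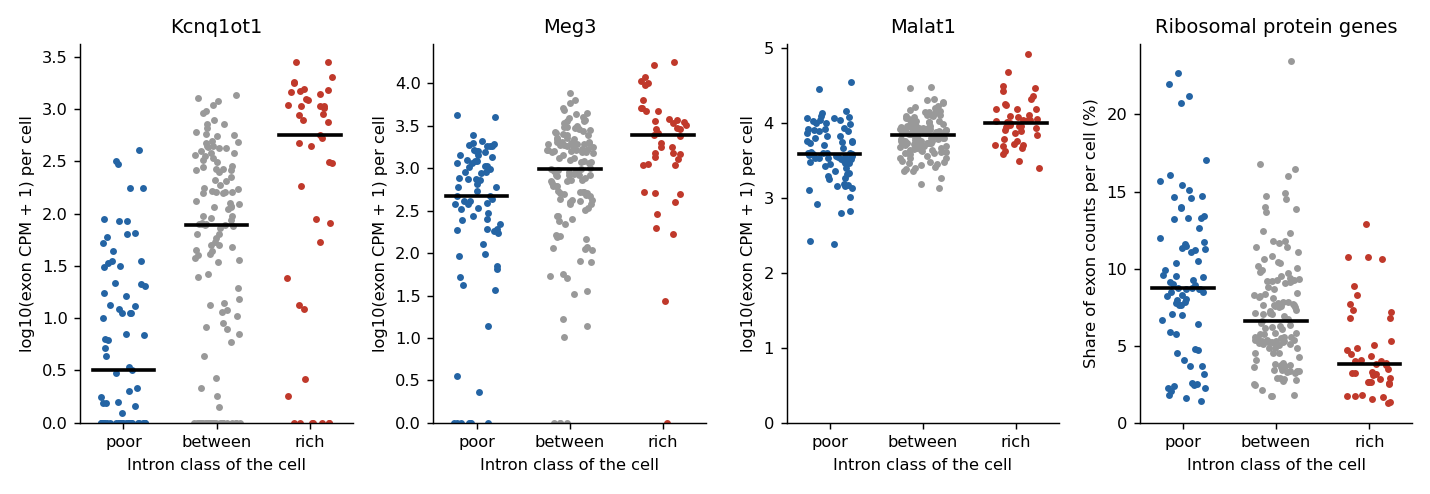
Level per cell in the 75 intron-poor cells, the cells between and the 43 intron-rich cells (x axis). The left 3 panels show log10 of exon CPM plus 1 for Kcnq1ot1, Meg3 and Malat1, the right panel the percent of exon counts on ribosomal protein genes. Bars are medians, which climb from poor to rich for the 3 noncoding RNAs and descend for ribosomal protein genes, and the classes overlap in every panel.

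Other nuclear noncoding RNAs were also higher. Of a list of 25, 12 passed the filter on low counts, 6 were called higher and 0 lower, where 1.26% of all 7943 tested genes were called higher and 0.252% lower. Besides Kcnq1ot1, Meg3 and Malat1 these were Snhg14, the long transcript that runs across Ube3a on the opposite strand (2.24 ± 0.52, edgeR adjusted p = 0.00991), Rian (2.03, adjusted p = 0.0337), which lies in the same imprinted domain as Meg3, and Mir124a-1hg (2.38, adjusted p = 0.036), the host transcript of a neuronal microRNA. With the clone as a replicate block Snhg14, Rian and Mir124a-1hg were no longer called (edgeR adjusted p = 0.0964, 0.331 and 0.353), nor were they without the clones of high Meg3 and Malat1 (adjusted p = 0.0685, 0.1425 and 0.118). With the class set from genes that overlap no other gene, Rian and Mir124a-1hg were not called (adjusted p = 0.0972 and 0.398). The median over the 12 was 2.13 on the log2 scale, beside 0.43 over all tested genes. Miat (2.24, adjusted p = 0.0562) and Tug1 (1.31, adjusted p = 0.148) did not pass, and Pantr1 at -0.78 was the 1 member below 0. With DESeq2 size factors in place of TMM the median of all genes moved from 0.43 to 0.83, and Kcnq1ot1 then stood at 5.30 and Malat1 at 1.89.

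Neat1, the RNA that builds paraspeckles, was not tested because too few sums held it. It had counts in 13 of 43 intron-rich cells (30.2%, 95% Wilson interval 18.6 to 45.1%) and in 9 of 75 intron-poor cells (12.0%, 6.44 to 21.3%). Xist had counts in 7 of 43 and 3 of 75 cells, and its highest level was 273.4 CPM, in 1 intron-rich cell of plate 2, against a highest level of 22.6 CPM among intron-rich cells of plate 3. These intervals cover counting of cells only.

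Host transcripts of small nucleolar RNAs and RNAs known from the cytoplasm formed a second noncoding list. Of its 16 members 11 were tested and 0 were called in either direction by edgeR. Their median was 0.25, and Snhg1 stood at 1.87 (adjusted p = 0.26) and H19 at -2.09 (adjusted p = 0.205).

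Several of the 12 higher genes named by smallest p are annotated inside another gene, but most called genes are not, and nor are most tested genes. Of the 100 genes called higher, 85 lie inside no other gene, 6 inside one on the same strand and 6 on the opposite strand. The other 3 have no entry in the annotation. Over all tested genes the median log2 difference was 0.44 for genes inside no other. It was 0.32 for genes inside another on the same strand and 0.17 on the opposite strand. Gm42993 and Gm42992 lie on the same strand within Auts2, 6330415B21Rik within Ctnna2 and Gm45223 within Picalm, and each has 1 exon and belongs to the annotation's class of transcripts that await experimental evidence. Gm42993 had counts in 25 of 43 intron-rich and 9 of 75 intron-poor cells, with a log2 difference of 6.75 ± 0.95 (SE, edgeR adjusted p = 4.55e-07). The difference was 5.50 ± 1.00 for Gm42992, 6.73 ± 1.19 for 6330415B21Rik and 6.17 ± 0.99 for Gm45223, and AC132307.1, within Zfp532, stood at 5.02 ± 0.93. In the 17 clones with both classes, the intron-poor median of each of these genes was 0 CPM. The filter on low counts can be passed through intron-rich sums alone, so the sizes of these differences are a description. With the class set from genes that overlap no other gene AC132307.1 was at 3.35, with an edgeR adjusted p of 0.0507, and Gm45223 did not pass the filter on low counts. Reads from unspliced RNA of the surrounding gene cannot be told apart from these transcripts. The median intron count of Auts2 was 4437 per 1000000 exon counts in intron-rich and 255.9 in intron-poor cells, and that of Ctnna2 was 3627 and 147.2. Of the 15 tested transcripts of that class 6 were called higher and 0 lower, under the same filter. Of all tested genes 1.26% were called higher and 0.252% lower.

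The IDs ENSMUSG00002075795 and ENSMUSG00000118642, which have no name in the tables used, were higher by 4.23 ± 0.56 and 3.69 ± 0.50 (SE, edgeR adjusted p = 1.24e-07 and 2.36e-07). ENSMUSG00002075795 had counts in 40 of 43 intron-rich and 59 of 75 intron-poor cells, at medians of 425 and 11.2 CPM. ENSMUSG00000118642 was at medians of 142.3 and 13.1 CPM. Mir99ahg, a long host transcript of microRNAs, had medians of 36.3 and 0.502 CPM and a difference of 4.00 ± 0.74 (edgeR adjusted p = 0.000352), which with the clone as a replicate block was 5.30 with an adjusted p of 0.115.

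Gria2, which encodes a subunit of AMPA glutamate receptors, was the protein-coding gene of smallest p. Its level ran from 0 to 2669 CPM with a median of 582 in intron-rich cells, and from 0 to 870 CPM with a median of 88.3 in intron-poor cells. Only 2 of 75 intron-poor cells exceeded the intron-rich median. The log2 difference was 2.26 ± 0.44 (SE, edgeR adjusted p = 0.00103), and 1.52, 2.08 and 2.49 on plates 1, 2 and 3. With the clone as a replicate block it was 2.30, with an edgeR adjusted p of 0.145.

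Protein-coding genes with long introns or with nuclear products stood above the median of all genes as lists, while few members passed the test. Among all 7943 tested genes 69.5% stood above 0, 1.26% were called higher and 0.252% lower. Of 30 long neuronal genes 23 were tested, and all 23 stood above 0 with a median of 1.19. Of these, 18 stood above the median of all genes, and 1 was called higher: Csmd1, a large membrane protein (3.63 ± 0.88, edgeR adjusted p = 0.0172). Robo2, an axon guidance receptor, stood at 2.38 (adjusted p = 0.0995). Of 25 chromatin and other nuclear messages 25 were tested and 1 was called higher, Kmt2c, a histone methyltransferase (2.01 ± 0.50, adjusted p = 0.0203), with a median of 0.87. Setd2, another methyltransferase, stood at 1.84 (adjusted p = 0.0599) and Chd4, a chromatin remodeller, at 1.25 (adjusted p = 0.0778).

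Messages known for introns that are spliced late, and messages of speckle proteins, formed another list. Of its 25 members 23 were tested with a median of 0.85, and 2 were called higher, where 1.26% of all tested genes were. These were Srrm2, a scaffold of nuclear speckles (1.11 ± 0.30, edgeR adjusted p = 0.0337), and Luc7l2, a splicing factor (1.90 ± 0.52, adjusted p = 0.0361). Son, another speckle scaffold, stood at 1.15 and Ogt, a glycosyltransferase whose message keeps an intron in the nucleus, at 1.77 (adjusted p = 0.0995 and 0.0997). With the class set from genes that overlap no other gene, Srrm2, Luc7l2, Kmt2c and Csmd1 were no longer called, with edgeR adjusted p of 0.1419, 0.205, 0.205 and 0.0518. Nor were Srrm2, Luc7l2 and Kmt2c with the clone as a replicate block (adjusted p = 0.372, 0.197 and 0.233), or all 4 without the clones of high Meg3 and Malat1 (adjusted p between 0.0873 and 0.26).

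Messages of the cytoplasmic ribosome were lower in intron-rich cells. Ribosomal protein genes took 1.25% to 12.9% of a cell's exon counts in intron-rich cells, with a median of 3.84%, and 1.39% to 22.7% in intron-poor cells, with a median of 8.72%. The ranges overlapped, and 38 of 43 intron-rich cells lay below the intron-poor median. Intron-rich and intron-poor medians were 7.17% and 9.39% on plate 1, 3.99% and 11.7% on plate 2, and 2.67% and 3.42% on plate 3. Plate 3, lowest in both classes, held a larger part of the intron-rich than of the intron-poor cells. The pooled medians thus mix class with plate. Of the 17 clones with both classes, the share was lower in the intron-rich cells of 14. When mitochondrial and the most abundant genes were left out of the total, the pooled medians were 4.58% and 12.1%.

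Of 83 ribosomal protein genes 77 were tested, 0 stood above 0, 15 were called lower and 0 higher, where 0.252% of all tested genes were called lower. Their median was -0.80 and their range -1.18 to -0.29, so that the list's median minus that of all genes was -1.24. Rps3, a protein of the small subunit, ran from 0 to 7613 CPM with a median of 1643 in intron-rich cells and from 408 to 31823 with a median of 4664 in intron-poor cells. Its log2 difference was -1.13 ± 0.27 (SE, edgeR adjusted p = 0.0165), and it was lower in the intron-rich cells of 15 of 17 clones. Rps9 had the smallest p of the list (-0.998 ± 0.22, edgeR adjusted p = 0.00608), and stood at -1.08, -1.31 and -1.11 on plates 1, 2 and 3. With the clone as a replicate block Rps9 was at -1.28 (adjusted p = 0.1), while Rps3 was at -1.86 (adjusted p = 0.00868).

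Rpl23 (-1.03 ± 0.25), Rpl37a (-0.90 ± 0.22), Rps2 (-1.07 ± 0.27), Rpl4 (-0.88 ± 0.22), Rps6 (-1.07 ± 0.29), Rps4x (-0.90 ± 0.24) and Rpl35 (-0.98 ± 0.26) were called as well, with edgeR adjusted p between 0.0142 and 0.035. Rps3a1, which the pattern used for the list does not match, stood at -1.59 ± 0.40 (adjusted p = 0.0209) and was lower in 16 of 17 clones. With the clone as a replicate block these 8 genes were no longer called, with edgeR adjusted p between 0.116 and 0.304. Many ribosomal protein genes have processed pseudogenes of near-identical sequence, and the sources used here do not state how reads shared between copies were counted. With the class set from genes that overlap no other gene, 1 gene in all was called lower, and the ribosomal protein median minus that of all genes was -0.93. Rps9 was then at -0.89 (edgeR adjusted p = 0.0767) and Rps3 at -0.93 (adjusted p = 0.0897), and the other 8 had adjusted p between 0.0528 and 0.503.

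**Figure D3:**
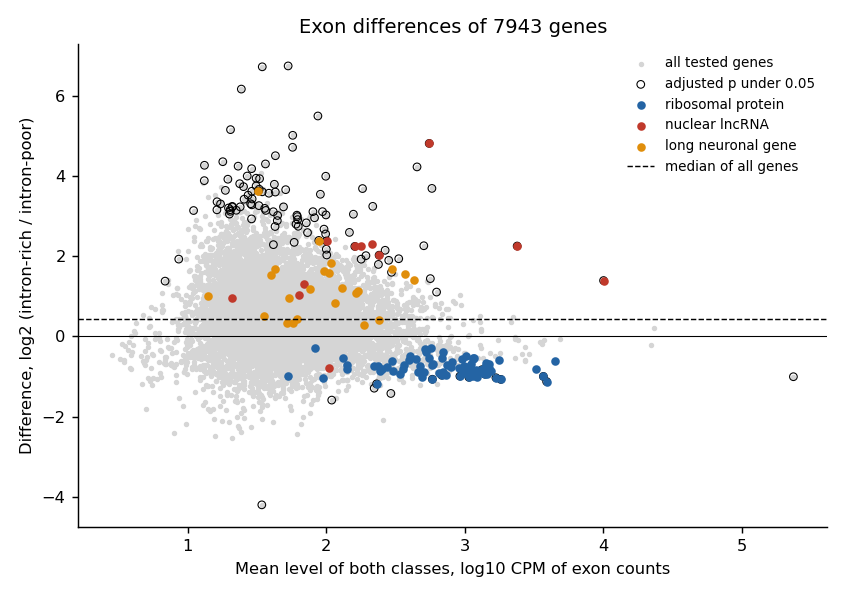
Each tested gene by mean exon level (x axis, log10 CPM) and log2 difference of intron-rich over intron-poor sums (y axis). Circles mark adjusted p under 0.05, the dashed line the median of all genes at 0.43. Colours mark ribosomal protein genes, nuclear noncoding RNAs and long neuronal genes. Ribosomal protein genes lie below 0 at high level, and nuclear noncoding RNAs lie above the median with 1 exception.

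Messages of other abundant cytoplasmic proteins leaned the same way with few calls. Of all tested genes 69.5% stood above 0 and 0.252% were called lower. Of 20 translation factors 17 stood at or below 0 with a median of -0.54, and 1 was called lower, Eif3e, a subunit of an initiation factor (-1.42 ± 0.39, edgeR adjusted p = 0.0377). Eef1a1, which brings tRNA to the ribosome, stood at -0.53 (adjusted p = 0.142) and Tpt1 at -0.55 (adjusted p = 0.289). Of 72 tested nuclear genes for the respiratory chain 59 stood below 0 with a median of -0.49, and 1 was called, Atp5e, a small subunit of ATP synthase (-1.29 ± 0.32, adjusted p = 0.0172). Uqcrh, of complex III, stood at -1.06 (adjusted p = 0.17). Tst, a mitochondrial sulfurtransferase, was called at -4.20 ± 1.09 (adjusted p = 0.0257), from counts in 9 of 43 intron-rich and 26 of 75 intron-poor cells. With the class set from genes that overlap no other gene Eif3e, Atp5e and Tst were not called (edgeR adjusted p = 0.155, 0.565 and 0.325). With the clone as a replicate block Eif3e and Atp5e were not called (adjusted p = 0.336 and 0.282) and Tst did not pass the filter on low counts. Neuronal cytoskeleton genes had a median of -0.23 over 22 tested and 0 calls in edgeR, with Actg1 at -0.90 (adjusted p = 0.0867).

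Transcripts that take over 1% of all exon counts set the totals and are described with no test, although the 20 genes called lower include ENSMUSG00000119584. This ID, which has no name in the tables used, took 14.1% of exon counts in the median intron-rich cell and 15.7% in the median intron-poor cell, with a range of 2.24% to 58.8% and 3.27% to 72.1%. On plate 3 its medians were 173869 and 493075 CPM, and on plate 1 they were 77604 and 103609. The mitochondrial ribosomal RNAs mt-Rnr1 and mt-Rnr2 had medians of 15226 and 21931 CPM in intron-rich and of 16906 and 17030 CPM in intron-poor cells. All transcripts of the mitochondrial genome together took 4.18% and 4.03% of exon counts at the median.

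The exon difference of a gene moved with the share of its own counts that lay in introns. That share was computed only from the cells between the classes. The rule still sorts cells by intron against exon counts, to which genes with many intron counts add. This order and those by gene structure are therefore a description. In the quintile of genes with the lowest share, at most 3.25%, the median log2 difference was -0.07 over 1588 genes. It was 0.14, 0.41 and 0.74 in the next quintiles and 0.96 over the 1589 genes of the highest, whose share was at least 48.2%. Of the 100 genes called higher 49 lay in the highest quintile, 21 in the one below it, 4 and 7 in the middle ones and 19 in the lowest, and all 20 called lower lay in the lowest.

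Gene span and exon length gave the same order. Genes spanning at most 8773 bases had a median of -0.15 and those spanning at least 80854 bases a median of 0.88. Genes with at most 2740 exonic bases had a median of -0.23 and those with at least 8729 a median of 0.96. Long noncoding RNAs had a median of 1.02 over 87 genes, protein-coding genes 0.44 over 7683 and pseudogenes -0.47. These properties are related to each other, and their separate parts were not tested.

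**Figure D4:**
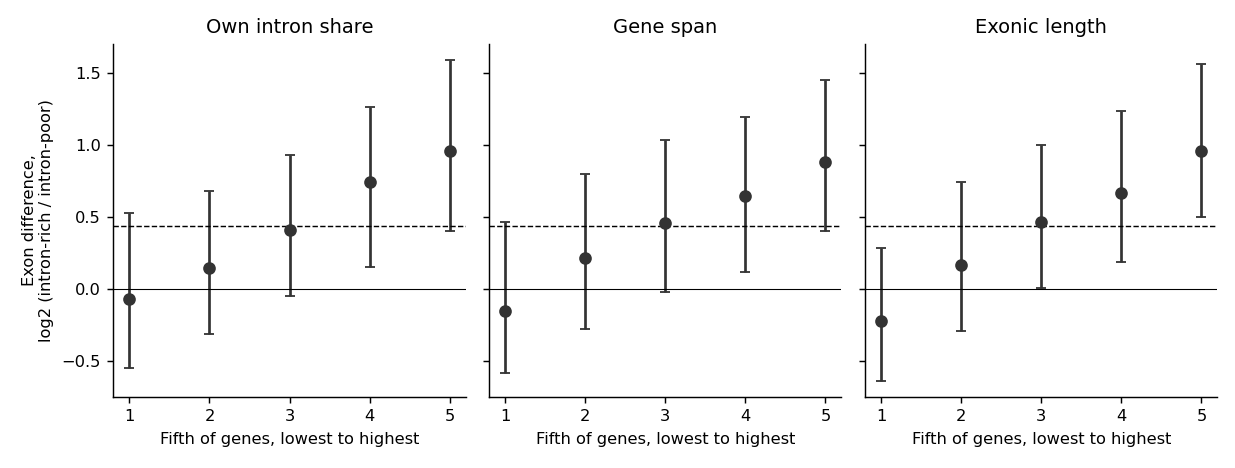
Median log2 exon difference, intron-rich over intron-poor (y axis, bars span the middle quartiles), of tested genes in quintiles (x axis, lowest to highest) of own intron share, gene span and exonic length. The dashed line is the median of all genes. Medians climb across the quintiles of each property.

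The cells between the classes, which the rule did not use, were split at an intron share of 30% and compared in the same way. Of 6545 genes edgeR called 0 (0%) in either direction. At an unadjusted p under 0.05 it held 86 higher (1.31%) and 83 lower (1.27%), and DESeq2 called 2 higher (0.0306%) and 1 lower (0.0153%). Of the 100 genes higher in intron-rich cells 69 were tested here and 52 lay in the same direction, while 47.3% of all genes were above 0. Of the 20 lower genes 19 were tested and 18 lay in the same direction, while 52.7% of all genes were below 0. Kcnq1ot1 stood at 0.27, Meg3 at 0.37 and Malat1 at 0.28, with unadjusted edgeR p of 0.631, 0.305 and 0.156. The smallest p were those of Me1, a malic enzyme (-3.72 ± 0.89, edgeR adjusted p = 0.379), and of Usp46, a deubiquitinase, and Prkab2, a subunit of AMP-activated kinase (both adjusted p = 0.753).

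Over bins of intron share the noncoding RNAs and the ribosomal protein genes moved in opposite directions. Median Kcnq1ot1 was 0.114 CPM in the 38 cells under 15%, 9.08 in the 37 cells from 15% to 20%, and between 51.0 and 124.1 in the 4 bins from 20% to 40%. It was 305 in the 27 cells from 40% to 50% and 1233 in the 16 cells above. Median Malat1 climbed from 3252 CPM in the lowest to 15250 CPM in the highest bin. The share of ribosomal protein genes stood at 8.87% in the lowest bin and 2.76% in the highest, and was not monotone between 25% and 35%. The mitochondrial share peaked at 7.76% in the 36 cells from 25% to 30% and was 3.85% and 4.02% at the ends. The rank correlation with intron share over kept cells was 0.48 for Kcnq1ot1 and 0.38, 0.60 and 0.51 on plates 1, 2 and 3. It was 0.44 for Malat1, 0.39 for Meg3 and -0.38 for the ribosomal protein share, as a description of cells that share plates and clones. On plates 1, 2 and 3 it was 0.62, 0.28 and 0.57 for Malat1 and 0.45, 0.21 and 0.52 for Meg3. For the ribosomal protein share it was -0.34, -0.56 and -0.21. In the cells between the classes alone the correlations were weaker. They were 0.14 for Kcnq1ot1, 0.18 for Malat1, 0.11 for Meg3 and -0.20 for the ribosomal protein share.

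**Figure D5:**
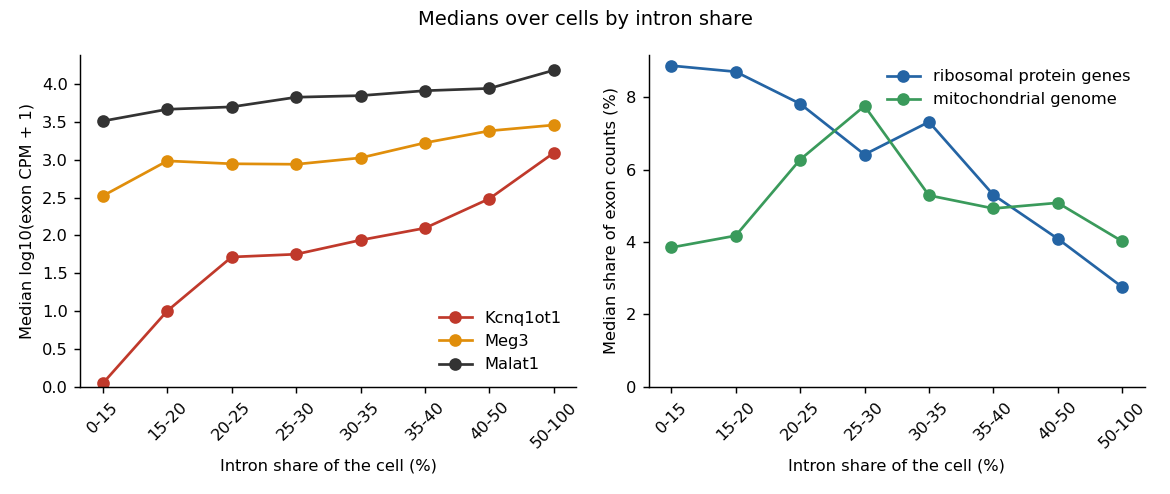
Medians over cells in 8 bins of intron share (x axis, percent). The left panel shows log10 of exon CPM plus 1 of Kcnq1ot1, Meg3 and Malat1, the right panel the percent of exon counts on ribosomal protein genes and on the mitochondrial genome. Kcnq1ot1 climbs from 0.114 to 1233 CPM while the ribosomal protein share goes from 8.87% to 2.76%.

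The intron counts themselves had another make-up in the classes, as shares of all intron counts. Of 5191 genes tested, 969 were called higher (18.7%) and 515 lower (9.92%), beside a median of 0.72 over all genes. The smallest p among higher genes were those of Ptk7, Heg1, Xkr6, Tenm4 and Auts2. Ptk7, a Wnt co-receptor, stood at 4.83 ± 0.71 (SE, edgeR adjusted p = 7.91e-07), Heg1 at 4.13 ± 0.67 and Xkr6 at 4.67 ± 0.77. Tenm4, a teneurin, had an edgeR adjusted p of 1.72e-05, and Auts2, a neuronal nuclear protein, stood at 2.07 ± 0.36. The 969 genes spanned 102821 bases at the median, against 66246 over all tested genes and 18338 over the 515 lower ones. Their introns made up 32.7% of intron counts in the median intron-rich and 11.1% in the median intron-poor cell. The genes were chosen by that share in these same cells, so this difference follows from the choice.

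Genes called lower in the intron table were largely genes whose introns hold exons of other genes. Of the 515, 296 (57.5%) had at least 50% of their intron counts matched by exon counts of overlapping genes, against 23 of 969 (2.37%) of the higher genes and 16.7% of all tested. Wdr38 (-3.04 ± 0.35, edgeR adjusted p = 9.70e-10), Gm20388 and Gm49450 were matched to at least 97.6%. Gm20388 and Gm49450 had exon counts of their own in 0 of the compared cells. Cdk8, a kinase of the Mediator complex, had the smallest p (-2.71 ± 0.29, adjusted p = 5.73e-11) and Sspn stood at -2.72 ± 0.34, and neither was matched in this annotation. Set against exon counts, the 515 genes together held 63503 intron counts per 1000000 exon counts in the median intron-rich and 63337 in the median intron-poor cell, while the 969 higher genes held 263264 and 20092. Cdk8 held 3617 and 3401. Both gene sets were chosen in these cells, and the rule sorts cells by intron against exon counts, so these values are a description.

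Over genes that overlap no other, 321 of 1501 were higher and 82 lower in intron counts. In the fit over all 5191 genes, where 18.7% were called higher and 9.92% lower, long neuronal genes had a median intron difference of 1.19, with 17 of 30 called higher. In that fit introns of ribosomal protein genes had a median of -2.09, with 29 of 38 tested called lower.

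Cell type markers were compared because the classes could differ in the cells they hold. Summed markers of excitatory neurons had a median of 9082 CPM in intron-rich and 7861 CPM in intron-poor cells, and 1 of 16 was called higher, Gria2. Of all tested genes 1.26% were called higher and 0.252% lower. Radial glia markers were at 3384 and 3396 CPM at the median, ranging from 664 to 12195 and from 61.1 to 34385, with 0 of 15 called by edgeR. Cell cycle genes were at 741 and 764 CPM, also with 0 of 15 called. Intermediate progenitor markers were at 250.3 and 165.9 CPM, with 0 of 5 called.

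Markers of other cells the organoids could hold were low in the median cell, though single cells held more. The median summed level was 12.1 and 0 CPM for GABAergic neurons, 0 and 0 CPM for choroid plexus, 1.52 and 0 CPM for endothelium and microglia and 0 and 0 CPM for pluripotency markers. No gene of those lists passed the filter on low exon counts. Mesenchyme markers were at 17.5 and 3.37 CPM at the median, with Col3a1 the 1 member tested (-0.93, edgeR adjusted p = 0.729), and Reln, of Cajal-Retzius cells, stood at 1.68 (adjusted p = 0.285). The part of cell type in the differences above was not tested.

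In exon counts edgeR called no stress gene in either direction. Immediate early genes had a median of 0.41 over 8 tested, with Egr1 at 1.19 (edgeR adjusted p = 0.471). Heat shock genes had a median of -0.11 over 8, and p53 target genes 1.01 over 8, with Trp53inp1 at 1.69 (adjusted p = 0.255).

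The class effect on exon counts was compared between plates and between clone types by interaction terms, added after the main results were seen. Over 7943 genes the term for plate was called for 1 gene and that for clone type for 0 by edgeR, and 2.86% and 1.35% of genes had an unadjusted p under 0.05. For Kcnq1ot1 the unadjusted p was 0.465 for plate and 0.167 for clone type, and intron-rich cells of SN clones had a median of 957 CPM and those of N clones 182.1 CPM. Within the 17 clones that held both classes, with the clone as a replicate block, 12 genes were called higher and 2 lower, and of the 100 genes called higher above 68 were tested there, 68 lay in the same direction and 7 were called. Of the 20 lower genes 19 were tested, 19 lay in the same direction and 2 were called. Both lists were chosen in a fit that held these same 17 clones, so agreement in direction was largely fixed beforehand. Of all 5948 genes tested with the block, 76.1% stood above 0.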

How the data were processed

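The members, gene lists and tests were chosen with earlier results of these data known. The authors deposited whole-number exon counts and intron counts per gene (55359 Ensembl IDs) for 287 libraries, of which 284 were labelled, 247 kept and 129 lay between the classes. Per the submitters' processing notes STAR 2.7.9a, R 4.4.0 and the GRCm39 genome were used; the counting tool, strand setting and use of molecular identifiers are not given in the sources used here. Symbols were found for 52083 IDs. Biotype, span, exon number and overlap came from GENCODE M21 (GRCm38) by stable ID, so no coordinates are given.

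Counts were summed per clone and class (31 and 39 sums) and tested with edgeR 4.0.16 in R 4.3.3 (filterByExpr, TMM, quasi-likelihood F test, plate as covariate, Benjamini-Hochberg, threshold 0.05). DESeq2 1.42.0 was an alternative. On simulated exon counts with known changes, the exon test recovered 3.03%, 15% and 88.1% of log2 changes of 1, 2 and 4. Levels are CPM of exon counts per cell, which are not per length. Permutation tests (scipy 1.17.1) used 100000 draws.

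The text names, per direction, the 12 genes of smallest p among those with adjusted p under 0.05 and counts in at least 10 compared cells in exon counts (5 in intron counts and in the cells between the classes, or 3 where fewer passed), up to 4 members of each list, and Kcnq1ot1, Meg3, Malat1, Neat1 and Xist. Of genes without a name at most 2 are printed. 1 gene that the rule names is not reported here. Rian, Mir124a-1hg, Miat, Tug1, Pantr1 and Snhg1 were named after their values were seen. Depth was 6171 to 13040432 exon counts per compared cell. Replicate numbers only follow accession order and pair nothing; the clone was used as the block.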

Additional observations from a re-analysis of the deposited data

Results flagged for a closer look

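Cul9, a cullin-family protein of ubiquitin ligases, was the 1 gene whose class effect differed between plates (edgeR interaction test, adjusted p = 0.0216, chosen after the data were seen). The first plate gave a log2 difference of 1.54, the second 10.03 and the third -0.70, from counts in 20 of 43 intron-rich and 19 of 75 intron-poor cells. In all 5 settings tried 1 gene was called for this term.

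A clone stood apart from the other clones of its plate in 2 of 8 groups of 4 to 10 clones that were checked. The criterion marks about 1 in 20 groups by chance where values follow a normal distribution, which was not checked for these levels. The intron-rich cells of 1 clone of plate 1 averaged 8488 CPM of Meg3, and the median of the 7 other clones was 3211. The 1 intron-rich cell of a clone of plate 2 held 84195 CPM of Malat1, and the median of the other clones was 11593.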

How the results depend on the processing

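Counts of called genes depended on the setting, and are given as percent of the genes tested in each. Exon calls in the higher direction (1.26%) came to 9.91% with DESeq2 size factors, 17.1% with the DESeq2 test and 25.7% with no filter on low counts. They came to 0.202% with the clone as a replicate block, to 0.0122%, 0.053% and 0.228% on plates 1, 2 and 3 alone, to 9.07% in cells thinned to equal depth, to 0.265% and 0.522% at thresholds of 45 and 15% and of 35 and 25%, and to 1.07% with the class from genes of even ID and the test on odd ones. Without the clone with most compared cells they came to 0.706%, with the class from genes that overlap no other to 0.555%, and without the clones that stand apart to 0.374%. Exon calls in the lower direction (0.252%) came in those settings to 0.667% (DESeq2), 2.58% (no filter), 0.0336% (replicate block), 0%, 0% and 0.0326% (plates), 4.21% (thinned), 0.0147% (45 and 15%) and 0.0118% (no overlap), to 0.668% in cells with 2000 genes, 0.671% in cells with 100000 exon counts, 0.13% without mitochondrial and most abundant genes and 0.0218% with the class from genes of odd ID.

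Intron calls in the higher direction (18.7%) came to 40.1% (DESeq2 size factors), 49.0% (DESeq2), 25.9% (no filter), 0.375%, 1.32% and 5.13% (plates), 10.8% (thinned), 20.3% (without mitochondrial and most abundant genes), 14.7% and 11.5% (other thresholds), 11.0% (even IDs) and 21.4% (genes that overlap no other). Those in the lower direction (9.92%) came to 6.13% (size factors), 5.62% (no filter), 1.74% (replicate block), 0.336%, 0.457% and 6.52% (plates), 20.5% (thinned), 5.84% and 6.77% (even and odd IDs) and 5.46% (genes that overlap no other). Within the cells between the classes the calls came to 0.0306% and 0.0153% (DESeq2) and to 8.36% and 4.48% (no filter), from 0%. Thinning tests fewer genes, and single plates and the block fewer sums; the cause of the other moves was not tested.

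The ribosomal protein median minus that of all genes (-1.24) came to -1.64 with no filter, -2.30 with the replicate block, -0.60 on plate 1, -1.003 in thinned cells, -0.89 at 35 and 25%, -0.95 with odd IDs and -0.93 with the class from genes that overlap no other. The highest minus the lowest quintile of own intron share (1.03) came to 2.27 with the replicate block. The difference in detected genes (2687) came to 911 without mitochondrial and most abundant genes and 1649 on plate 1, no longer past the threshold.

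The difference of log10 exon totals, given as a description, changed sign in some settings. It came to -0.0359 at 45 and 15%, -0.187 without mitochondrial and most abundant genes and -0.198 on plate 1. Differences that had not passed a test changed sign as follows. SN minus N came to -4.57, -2.48 and -5.55 points for intron-rich cells (45 and 15%, 35 and 25%, without those genes), and to 2.57, 0.526 and 3.68 points for intron-poor cells (both thresholds, plate 3). Green minus red came to -0.253 and -0.598 points on plates 1 and 2. Of named genes, H19 came to 1.19 and Sox11 to -0.11 with the replicate block. Hspa5 came to -0.40 and Gadd45g to -0.086 on plate 2, H1f0 to 0.13 and Cul9 to -0.70 on plate 3, and Olig1 to -2.15 on plate 3 and -0.14 at 35 and 25%. Col3a1 came to 0.32 (DESeq2), 1.72 (plate 2), 0.81 (without mitochondrial and most abundant genes) and 1.01 (no overlap). In all, values for named genes kept direction and side of the threshold in 1038 cases, gained the call in 74, reversed in 12 and lost the call in the rest. Thresholds of 35 and 25% were not run within the cells between the classes. The clone of high Meg3, the clone of high Malat1, overlap, depth of 100000 counts and the clone with most cells were looked at after the data were seen.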

Other observations

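Of the 3 libraries without a label, which entered no comparison, 1 had an intron share of 28.3% on 4954 genes, 1 had 50.6% on 13298 genes and 1 had 54.4% on 130 genes with 2257 exon counts.

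Olfactory and vomeronasal receptor genes, a list added after the data were seen, took a median of 0.0162% of exon counts in intron-rich and 0.00349% in intron-poor cells, while their share of intron counts was 0.0414% and 0.0532%. Over kept cells the rank correlation of the exon share with the intron share of the cell was 0.44, and it was 0.46, 0.36 and 0.46 on plates 1, 2 and 3. The difference in this share was not tested.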
